A study of Mus musculus with 12 samples.

Results

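The genes of the collagen chains, those named Col followed by a type number, the letter a and a chain number, were followed in early and late biopsies of mouse colon tumors. They were chosen by their names, with earlier results of these data known. Every such gene that an array probe set (a group of probes for 1 transcript) names on its own was taken. Of the 19938 genes so measured, 44 belong to them. The 44 genes come from 46 probe sets, since Col6a5 and Col6a6 had more than 1, of which the brighter was kept. Each of the 44 had a mean over the 12 arrays above 6.69 log2, the 25th percentile of all genes, so a filter at that level removes none of them. Col21a1, a further chain of the class lists used here, was not analysed here.

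All animals were F1 hybrids of SWR and C57BL/6 that carried Apc Min/+, a germline mutation in 1 copy of the Wnt pathway suppressor Apc, and all had been given 4% dextran sodium sulfate (DSS), which damages the epithelium of the colon, in 2 courses of 4 days. A tumor of each of 6 mice gave 1 early biopsy, at 94.3 ± 11.8 days of age (SD, n = 6), and 1 late biopsy, at 280 ± 82.5 days (SD, n = 6), each on its own Affymetrix array. The late biopsy was read as adenoma in mice 1755, 1803 and 1805 (234 to 395 days) and as intramucosal carcinoma in mice 2201, 3407 and 3413 (200 to 267 days). The labels give no pathology for the early biopsies, which are grouped by the final pathology of their tumor, no untreated, wild-type or normal tissue is among the samples, and age and pathology go together in part. A biopsy is a mixture of cells, so more cells of a kind and more RNA per cell cannot be told apart.

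Collagens are the main fibrous proteins of the extracellular matrix, built from alpha chains that wind around each other in a rope-like helix. Fibrillar types I, III and V form the fibers of connective tissue, type VI forms beaded filaments beside cells, and type IV forms the meshwork of basement membranes under epithelium and around vessels. Fibril-associated collagens with interrupted helices (FACIT), such as types XII and XIV, sit on the surface of fibers, and the multiplexins XV and XVIII sit in or near basement membranes. In the gut wall most interstitial collagen is made by fibroblasts and related stromal cells, and basement membrane chains also by vessels and epithelium.

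Among 9 epithelial markers, Epcam was at 12.68 to 13.03 log2 and Krt8 at 14.07 to 14.47 over the 12 arrays. Cdh1, Krt18, Krt19 and Vil1 were at 11.44 or above on every array. Krt20 ranged from 7.03 to 13, Cdx2 from 7.75 to 11.57 and Cdx1 from 8.83 to 10.3. The 12 arrays fall into 2 groups by the mean of 50 probe sets that name no gene, those with the lowest numbers. This mean was 7.08 to 7.19 log2 for the early biopsies of mice 1755, 1803, 1805 and 2201, called the first array group here. It was 6.80 to 6.94 for the 8 other arrays, the second array group. Sample numbers given by the submitters were 155 to 255 in the first group and 319 to 379 in the second, and no label says what sets the groups apart. The pairs of mice 1755, 1803, 1805 and 2201 therefore cross the array groups, and those of mice 3407 and 3413 lie within the second. For the main genes the mean change over the 4 crossing pairs is set beside that over the 2 pairs within the second array group, and the part of the array group in any result cannot be told apart from time and pathology in the adenoma tumors.

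Most collagen genes were higher in the late biopsy, and the 8 with the smallest p, Col12a1, Col6a5, Col15a1, Col4a2, Col1a2, Col4a1, Col5a2 and Col1a1, were higher by 0.65 to 1.32 log2 over all tumors, but no gene passed the threshold. The estimate was above 0 for 38 of 44 genes, beside 42.1% of all genes, with a median of 0.07 over the collagen genes and -0.02 over all genes. The limma test called 0 collagen genes at an adjusted p of 0.05, beside 0% of all genes, and the smallest adjusted p was 0.249. At an unadjusted p of 0.05 there were 8 collagen genes on the higher side, beside 5.68% of all genes, and 0 on the lower side, beside 9.06%. A difference above 0.5 log2 was found for 13 of 44 collagen genes and for 2.42% of all genes. The late biopsy was higher in 6 of 6 mice for 0 collagen genes (2.59% of all genes). Once the array group entered the fit as a further term, genes above 0 were 11 of 44 in place of 38 (9867 in place of 8399 of all 19938 genes). Those at an unadjusted p of 0.05 were then 0 in place of 8 (475 in place of 2940 of all genes), and 6 of the 8 named genes had an estimate below 0, all but Col12a1 and Col6a5. That fit leaves mice 3407 and 3413 to set the change, and they differed. The 6 genes were higher late in mouse 3407, by 0.07 to 0.39, and changed by -0.39 to -0.69 in mouse 3413. The count of 8 was 2 without mouse 1755 (1803 of all genes), 3 without mouse 1803 (2063), 4 without mouse 2201 (2205) and 14 without mouse 3413 (3431).

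**Figure D1:**
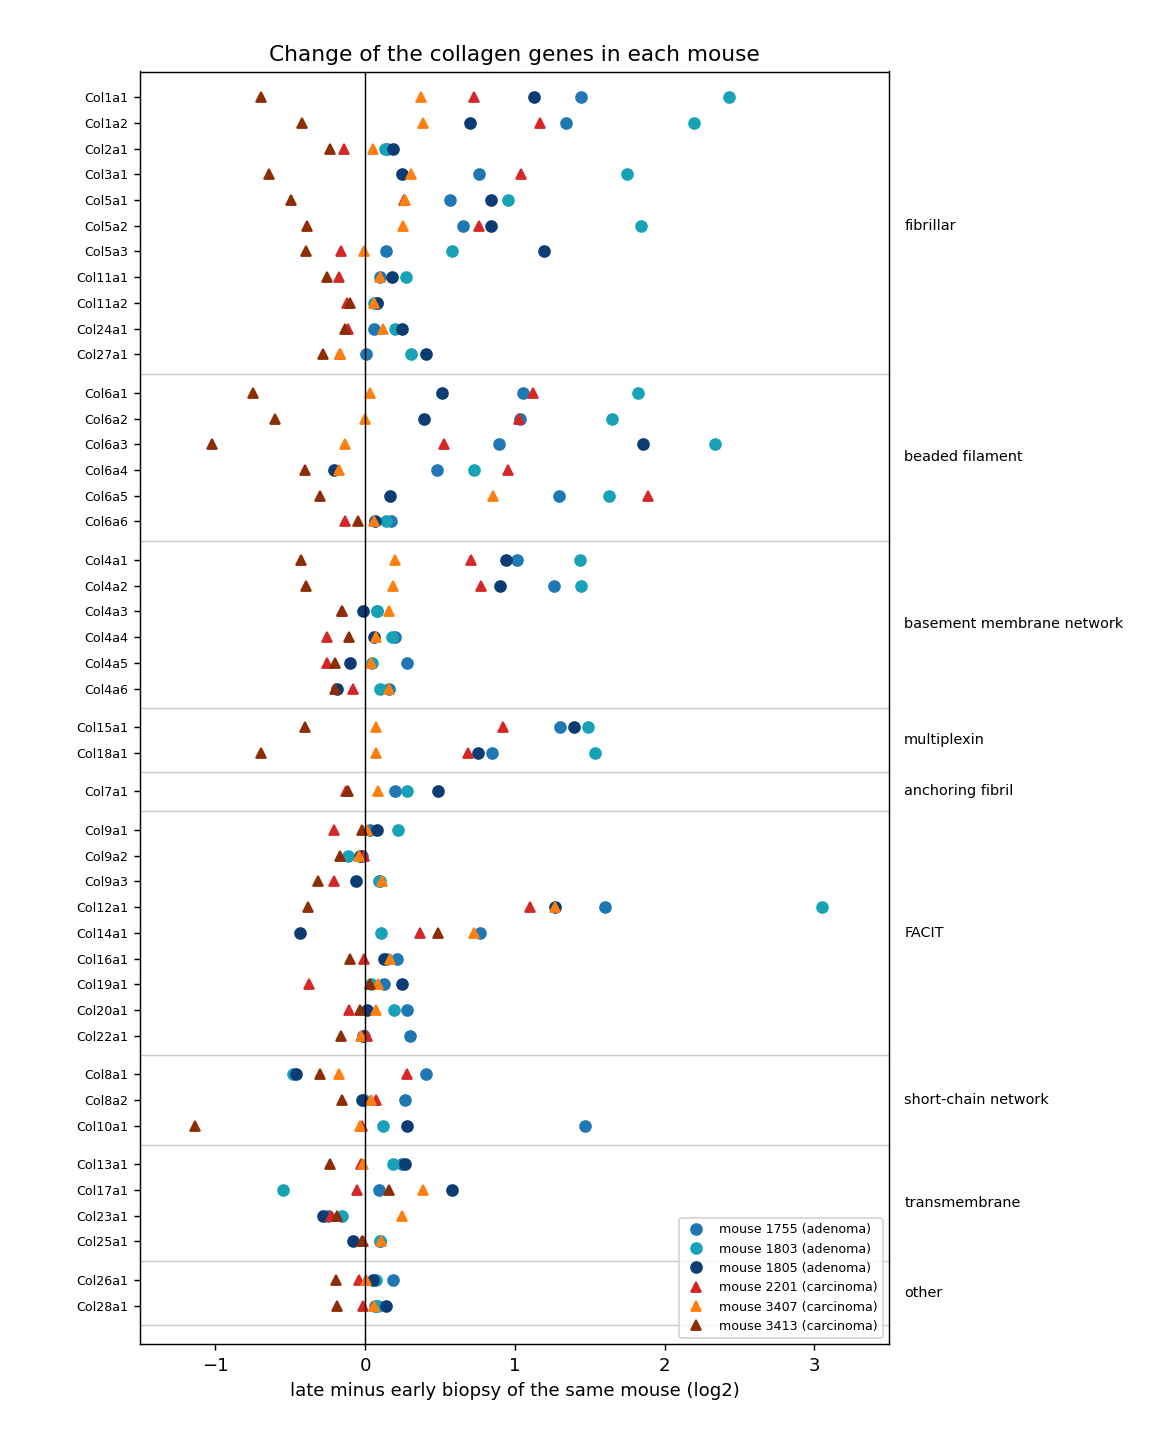
The change of each of the 44 collagen genes in each mouse, as late minus early biopsy in log2 units (x axis), with genes in rows by collagen class. Circles are the 3 mice with adenoma and triangles the 3 with carcinoma. Changes above 1 lie in a limited set of genes, such as Col1a1, Col6a3, Col4a2, Col15a1 and Col12a1, while mouse 3413 lies below 0 for 41 of 44 genes.

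The mice differed in how many genes were higher. In mouse 1755 the late biopsy was higher for 42 of 44 collagen genes, beside 50.2% of all genes, in mouse 1803 for 38 (44.3%) and in mouse 1805 for 32 (47.2%). In the carcinoma tumors it was higher for 19 genes in mouse 2201 (35.1% of all genes), for 35 in mouse 3407 (52.6%) and for 3 in mouse 3413 (47.0%), where 41 were lower (53.0%). The median change of the 44 genes was 0.26, 0.19 and 0.18 log2 in the adenoma tumors of mice 1755, 1803 and 1805. It was -0.01, 0.07 and -0.23 in mice 2201, 3407 and 3413. The late biopsy was higher by more than 1 log2 for 6 collagen genes in mouse 2201 (2.59% of all genes). That count was 10 in mouse 1755 (1.80%), 13 in mouse 1803 (2.23%), 5 in mouse 1805 (2.43%), 1 in mouse 3407 (0.617%) and 0 in mouse 3413 (0.191%). Mouse 3413 had the shortest interval between its biopsies, 83 days, and mouse 3407 the next shortest, 128 days, while the others had 140 to 309 days; the part of the interval was not tested.

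Of the fibrillar chains, Col1a1 and Col1a2 form type I collagen, the chief fiber of connective tissue. Throughout, 6 values in a row are those of mice 1755, 1803, 1805, 2201, 3407 and 3413 in this order, in log2 intensity. Col1a1 was at 10.58, 10.17, 11.16, 11.14, 11.79 and 12.43 early and 12.02, 12.60, 12.29, 11.87, 12.16 and 11.74 late. The 4 early arrays of the first array group were the lowest of the 12, and the early array of mouse 3413 was higher than its own late array. Col1a1 differed by 0.90 (SE 0.351, adjusted p = 0.308) over all tumors, was higher late in 5 of 6 mice, and changed by 1.43 ± 0.73 in the 4 crossing pairs (SD) and by -0.16 in the 2 others.

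Its partner Col1a2 was at 10.02, 9.49, 10.45, 10.17, 10.89 and 11.73 early and 11.37, 11.69, 11.14, 11.33, 11.28 and 11.31 late. The late arrays lie within 0.55 log2 of each other, while the early arrays spread over 2.24. The difference was 0.90 (SE 0.30, adjusted p = 0.274), again with 5 of 6 mice higher. The changes of both chains had the same sign in 6 of 6 mice, and the largest gap between the chains was 0.44, in mouse 2201. The stretch ahead of the annotated start of Col1a2 is shown because it holds a CCAAT box (capitals), a motif known from type I collagen promoters, 109 bases ahead of the start (RefSeq, GRCm38.p6, chr6:4505368-4505617, plus strand, 250 bases).
Col1a2 promoter: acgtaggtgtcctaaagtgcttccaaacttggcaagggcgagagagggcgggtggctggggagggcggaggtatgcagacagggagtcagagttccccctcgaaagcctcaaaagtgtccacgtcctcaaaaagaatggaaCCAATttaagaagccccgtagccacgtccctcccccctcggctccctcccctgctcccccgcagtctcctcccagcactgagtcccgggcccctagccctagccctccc
The letters CCAAT, on either strand, were found in the 250 bases ahead of the start in 13 of the 35 collagen genes with a sequence in the table and in 37.5% of 27025 genes, and a match is no evidence that a factor binds there.

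Col3a1, the chain of type III collagen, was at 9.90, 9.26, 10.16, 9.53, 10.28 and 11.02 early and 10.66, 11.02, 10.41, 10.57, 10.59 and 10.38 late. The early arrays of mice 1803 and 2201 were lowest, and the difference over all tumors was 0.58 (SE 0.272, adjusted p = 0.373). Type V chains start and limit the width of type I fibers. Col5a2 was at 8.42, 7.41, 8.37, 8.28, 8.87 and 9.47 early and 9.08, 9.26, 9.21, 9.03, 9.13 and 9.08 late, with a difference of 0.66 (SE 0.248, adjusted p = 0.296). Its late arrays lie within 0.23 log2 of each other. Col5a1 was at 8.32, 8.21, 8.31, 8.56, 8.78 and 9.12 early and 8.88, 9.16, 9.15, 8.82, 9.04 and 8.62 late, with a difference of 0.40 (SE 0.178, adjusted p = 0.354), and Col5a3 had changes of 0.14, 0.58, 1.20, -0.16, -0.01 and -0.39. The first 2 type V chains had the same sign of change in 6 of 6 mice, whereas Col5a3 was higher late in the 3 adenoma tumors and lower in the 3 carcinoma tumors, a pattern of 4 collagen genes (1.71% of all genes), with Col10a1, Col13a1 and Col27a1.

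The remaining fibrillar chains hardly varied. Col2a1, the chain of cartilage collagen II, was at 8.33, 8.38, 8.37, 8.49, 8.42 and 8.49 early and 8.48, 8.52, 8.56, 8.35, 8.47 and 8.26 late. Col11a1, a chain of type XI collagen of cartilage, was at 7.37, 7.53, 7.45, 7.60, 7.53 and 7.51 early and 7.48, 7.80, 7.63, 7.43, 7.63 and 7.26 late. Col27a1 was at 8.50, 8.43, 8.33, 8.60, 8.77 and 8.69 early and 8.50, 8.74, 8.73, 8.44, 8.60 and 8.41 late. Their ranges over 12 arrays were 0.30, 0.55 and 0.45 log2, and those of Col11a2 and Col24a1 were 0.29 and 0.42. All 11 fibrillar genes had an estimate above 0 over all tumors, from 0.01 for Col11a2 to 0.90 for Col1a1, with a class median of 0.23.

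In type VI collagen, which forms beaded filaments next to cells, Col6a1 and Col6a2 join Col6a3 or, in some tissues, Col6a4, Col6a5 or Col6a6. Col6a3 was at 9.69, 8.93, 9.39, 9.59, 10.48 and 11.03 early and 10.58, 11.26, 11.24, 10.11, 10.35 and 10.01 late. The late arrays of mice 1803 and 1805 were the highest of the 12 and the late array of mouse 3413 lay 1.02 below its early one. The difference over all tumors was 0.74 (SE 0.414, adjusted p = 0.439), with 4 of 6 mice higher, and the change was 1.40 ± 0.84 in the crossing pairs (SD, n = 4) and -0.58 in the 2 others.

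Col6a1 changed by 1.05, 1.82, 0.52, 1.12, 0.04 and -0.74 and Col6a2 by 1.04, 1.65, 0.39, 1.03, 0.00 and -0.60. These neighbours on the chromosome, with 0 coding genes between them, differed from each other by at most 0.17 in any mouse. Col6a3 departed from Col6a2 by 1.46 in mouse 1805, where it changed by 1.85 and Col6a2 by 0.39. Of the alternative chains, Col6a5 was at 7.92, 7.43, 7.89, 7.86, 7.89 and 9.02 early and 9.22, 9.06, 8.06, 9.75, 8.74 and 8.72 late. It was higher late in 5 of 6 mice, most in mouse 2201, with a difference of 0.92 (SE 0.286, adjusted p = 0.270). Col6a4 changed by 0.48, 0.73, -0.21, 0.96, -0.17 and -0.40, and Col6a6 by at most 0.18 in either direction in any mouse. With all probe sets of a gene averaged, a setting that among collagen genes touches Col6a5 and Col6a6 only, Col6a5 differed by 1.27 (adjusted p = 0.241). All 6 genes of the class had an estimate above 0, with a median of 0.61.

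Col4a1 and Col4a2 encode the chains of the type IV collagen found in nearly all basement membranes. Col4a1 was at 9.34, 8.99, 9.45, 9.55, 10.27 and 10.79 early and 10.36, 10.42, 10.39, 10.26, 10.47 and 10.36 late. The 4 early arrays of the first array group lay between 8.99 and 9.55, below all others, and the 6 late arrays between 10.26 and 10.47. Col4a2 was at 9.20, 9.09, 9.54, 9.63, 10.37 and 10.91 early and 10.46, 10.53, 10.44, 10.40, 10.55 and 10.52 late. Over all tumors the differences were 0.65 (SE 0.224, adjusted p = 0.278) and 0.70 (SE 0.232, adjusted p = 0.274). Both genes changed alike: the gap between them had a median of 0.04 log2 and was at most 0.25, in mouse 1755. In the 4 crossing pairs Col4a2 changed by 1.10 ± 0.31 (SD) and in the 2 others by -0.10, and Col4a1 by 1.02 ± 0.30 and -0.11.

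The genes of this pair lie head to head. The 30 bases around their annotated starts are shown because both starts lie in them (RefSeq, GRCm38.p6, chr8:11312801-11312830, plus strand). Capitals mark the 22 bases between and including the start that the promoter table gives for each gene, and both genes cover these bases. Col4a2 starts at base 11312805, and the gene model of Col4a1 in the same release reaches base 11312889, further than this start. The genes therefore overlap, and the length of the overlap differs by transcript.
Col4a1 and Col4a2 starts: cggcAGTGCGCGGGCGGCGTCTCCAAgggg
The pairs Col4a3 and Col4a4, and Col4a5 and Col4a6, are also neighbours with 0 coding genes between them, and their chains are known from specialised basement membranes such as that of the kidney. Col4a3, Col4a4, Col4a5 and Col4a6 had differences over all tumors of 0.00, 0.03, -0.03 and -0.01, and none of them changed by more than 0.28 in any mouse. The median of the 6 type IV genes was 0.01, because the 2 main chains differed by over 0.6 and the 4 others hardly at all.

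Of the multiplexins, whose ends can be cleaved to fragments that act on vessels, Col15a1 was at 8.69, 8.20, 8.86, 8.89, 9.81 and 10.07 early and 9.99, 9.69, 10.26, 9.81, 9.88 and 9.67 late. It was higher late in 5 of 6 mice, with a difference of 0.80 (SE 0.262, adjusted p = 0.274), and changed by 1.27 ± 0.25 in the 4 crossing pairs (SD) and by -0.16 in the 2 others. With the 4 crossing pairs alone it passed limma's test (difference 1.27, adjusted p = 0.0473), the only collagen gene to do so in that setting, which was chosen after seeing the data. In these pairs every early array is in the first array group and every late array in the second. This difference therefore cannot be told apart from that between the array groups. Col18a1, the source of endostatin, was at 9.58, 8.73, 9.37, 9.63, 9.98 and 10.85 early and 10.43, 10.26, 10.12, 10.32, 10.05 and 10.15 late. It changed by 0.96 ± 0.39 in the crossing pairs (SD, n = 4) and by -0.31 in the 2 others.

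Col12a1, a FACIT chain on the surface of type I fibers, had the largest difference of the 44 genes over all tumors. Col12a1 was at 9.86, 8.92, 10.03, 10.12, 10.93 and 11.80 early and 11.46, 11.97, 11.30, 11.22, 12.21 and 11.42 late. The 3 early adenoma arrays and the early array of mouse 2201 were lowest, and mouse 1803 had the widest change, 3.05. The difference was 1.32 (SE 0.366, adjusted p = 0.249), and 0.97 without mouse 1803. The change was 1.75 ± 0.89 in the 4 crossing pairs (SD), and 1.27 in mouse 3407 and -0.38 in mouse 3413, the 2 others.

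Col14a1, a FACIT chain related to Col12a1, did not follow it in every mouse. It was at 7.81, 8.14, 8.49, 8.92, 8.25 and 8.37 early and 8.58, 8.24, 8.05, 9.29, 8.98 and 8.85 late. It was higher late in 3 of 3 carcinoma pairs, and in mouse 1805 it was lower by 0.44. The other 7 FACIT genes, among them the 3 chains of cartilage collagen IX, had estimates from -0.06 (Col9a2) to 0.09 (Col16a1). Col9a2 was the only collagen gene that was lower late in 6 of 6 mice (5.18% of all genes were), with changes of -0.02, -0.12, -0.03, -0.01, -0.04 and -0.17, each small.

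The chains of anchoring fibrils, short-chain networks and cell membranes varied little or without a common direction. Col7a1, the chain of the fibrils that tie epithelium to stroma, was at 8.05, 8.17, 8.11, 8.27, 8.41 and 8.21 early and 8.25, 8.45, 8.60, 8.14, 8.50 and 8.10 late. It was higher late in 3 of 3 adenoma pairs. Col8a1, a chain of vessel and eye basement membranes, was at 7.93, 8.32, 8.15, 7.80, 8.29 and 8.64 early and 8.34, 7.84, 7.69, 8.08, 8.11 and 8.33 late. It was higher late in 2 of 6 mice. Col10a1, known from growth cartilage, changed by 1.47, 0.12, 0.28, -0.02, -0.04 and -1.14, so that mice 1755 and 3413 moved apart by far more than the other mice.

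Col17a1, a transmembrane chain that anchors epithelial cells to the basement membrane, was at 7.88, 8.65, 8.31, 8.23, 8.22 and 8.12 early and 7.97, 8.10, 8.89, 8.18, 8.61 and 8.28 late, with no common direction in either pathology. Col26a1 was at 8.02, 8.18, 8.12, 8.29, 8.28 and 8.24 early and 8.20, 8.25, 8.17, 8.25, 8.28 and 8.04 late. Col13a1, Col23a1 and Col25a1 differed by 0.07, -0.14 and 0.03 over all tumors. By their spread the 44 genes form 2 sets: 20 lay above the 75th percentile of all genes by SD over the 12 arrays, and the other 24 had an SD under 0.2 log2. The largest SD of these 24, 0.178 for Col7a1, was at the 55.4th percentile, so an SD under 0.2 was common among all genes.

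**Figure D2:**
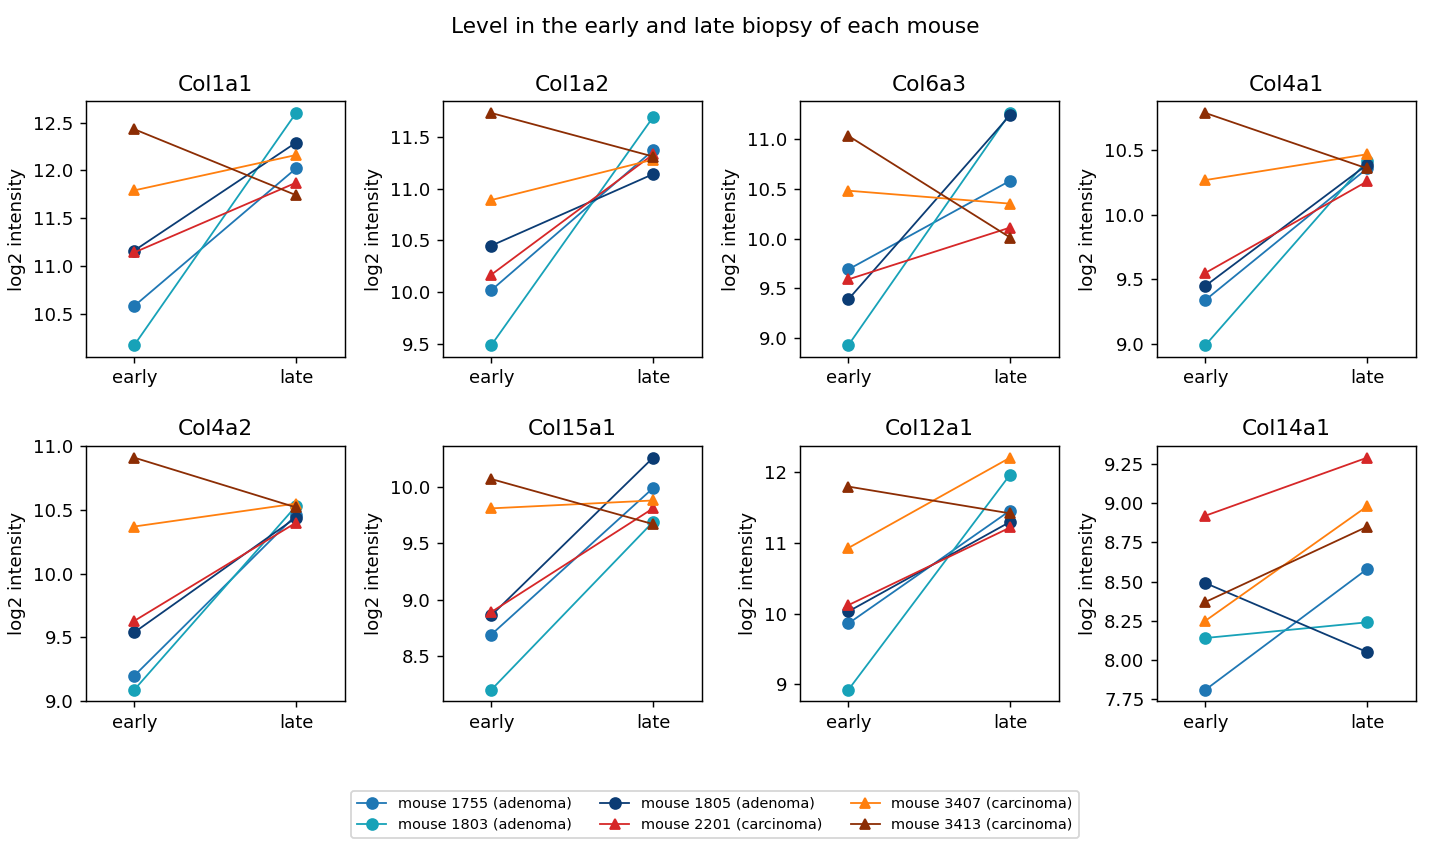
The level of 8 collagen genes in log2 intensity (y axis, scaled for each gene) in the early and the late biopsy, with a line for each mouse. The early levels of the 3 adenoma mice and of mouse 2201 lie below those of mice 3407 and 3413 for every gene shown except Col14a1, and the 6 late levels of Col4a1 and Col4a2 nearly coincide.

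The tumors read as adenoma addressed how the collagen genes differ between early and late biopsy of a tumor still read as benign at the end. All 11 fibrillar genes, 5 of 6 beaded filament genes, both multiplexins and 3 of 6 basement membrane genes, Col4a1, Col4a2 and Col4a4, were higher in the late biopsies of 3 of 3 mice (17.0% of all genes). So were 5 of 9 FACIT, 1 of 3 short-chain network and 1 of 4 transmembrane genes, with Col7a1, Col26a1 and Col28a1. No collagen gene passed the threshold. The largest difference was that of Col12a1, 3.93-fold. Col1a1 was at 10.63 ± 0.50 early and 12.30 ± 0.29 late (SD, n = 3), a difference of 1.67 (SE 0.324, adjusted p = 0.0969) or 3.18-fold. Col6a3 differed by 1.69 (SE 0.343, adjusted p = 0.103), Col12a1 by 1.97 (SE 0.419, adjusted p = 0.107), and Col1a2 by 1.41 (SE 0.352, adjusted p = 0.130). Col15a1 went from 8.58 ± 0.34 to 9.98 ± 0.29, a difference of 1.39 (SE 0.222, adjusted p = 0.0753), the smallest p of the 44 genes. The basement membrane chains Col4a2 and Col4a1 differed by 1.20 (SE 0.214, adjusted p = 0.0866) and 1.13 (SE 0.209, adjusted p = 0.0907), and Col5a1 by 0.79 (SE 0.165, adjusted p = 0.107).

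Counted over the family, limma called 0 of 44 collagen genes at an adjusted p of 0.05, beside 0.125% of all genes in either direction. At an unadjusted p of 0.05 there were 18 collagen genes on the higher side, beside 7.38% of all genes, and 0 on the lower side, beside 10.7%. The estimate was above 0 for 41 of 44 (47.2% of all genes), with a median of 0.17 beside -0.01 for all genes. In 31 of 44 genes all 3 mice were higher late (17.0% of all genes), and in 2, Col9a2 and Col23a1, all 3 were lower (22.4%). A difference above 1 log2 was found for 12 of 44 collagen genes and for 1.28% of all genes. Without mouse 2201, which enters this fit only through the shared spread, Col15a1 passed at an adjusted p of 0.0301 with the same difference. Each of the 3 adenoma pairs has its early array in the first array group and its late array in the second, so this difference cannot be told apart from that between the array groups. When a term for the array group was fitted, which rests on the carcinoma pairs, the 18 genes became 1 (3597 and 1142 of all genes).

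In the tumors read as carcinoma no common change of the collagen genes was found. limma called 0 collagen genes, beside 0% of all genes, with 1 gene at an unadjusted p of 0.05 on the higher side (1.70% of all genes) and 0 on the lower side (2.61%). The estimate was above 0 for 18 of 44 (39.8%), with a median of -0.04 beside -0.03 for all genes. The 1 gene was Col14a1, at 8.51 ± 0.36 early and 9.04 ± 0.23 late (SD, n = 3), a difference of 0.53 (SE 0.209, adjusted p = 0.952). It was also the only collagen gene higher late in 3 of 3 carcinoma pairs (9.73% of all genes were), with changes of 0.37, 0.73 and 0.49. In 5 genes, Col5a3, Col9a2, Col10a1, Col13a1 and Col27a1, all 3 were lower (16.9%), and Col27a1 differed by -0.20 (SE 0.0941, adjusted p = 0.952).

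The 3 carcinoma pairs went separate ways for the stromal chains. Mouse 2201, whose pair crosses the array groups, had changes of 0.73 for Col1a1, 1.17 for Col1a2, 0.71 for Col4a1 and 0.92 for Col15a1. In mouse 3407 the same genes changed by 0.38, 0.39, 0.20 and 0.07. In mouse 3413 they changed by -0.69, -0.42, -0.43 and -0.40. Col12a1 differed by 0.66 (SE 0.419, adjusted p = 0.952) and Col6a5 by 0.82 (SE 0.427, adjusted p = 0.952), each with mice 2201 and 3407 higher and mouse 3413 lower. The count of genes above 0 was 11 without mouse 2201, whose removal leaves the 2 pairs within the second array group (9867 of all genes, in place of 7933).

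The change was tested for a difference between the pathologies, which asks whether collagen genes move differently in tumors that become carcinoma. Col6a3 changed by 1.69 ± 0.73 in adenoma and by -0.21 ± 0.78 in carcinoma tumors (SD, n = 3), a difference of changes of -1.90 (SE 0.485, adjusted p = 0.621). For Col1a1 it was -1.53 (SE 0.458, adjusted p = 0.621), for Col15a1 -1.20 (SE 0.315, adjusted p = 0.621) and for Col4a2 -1.01 (SE 0.303, adjusted p = 0.621). limma called 0 of 44 collagen genes and 0% of all genes. At an unadjusted p of 0.05 there were 11 collagen genes with a smaller change in carcinoma tumors, beside 3.37% of all genes, and 0 with a larger one, beside 3.68%. The estimate was below 0 for 40 of 44 genes (52.9% of all genes), and for 19 the changes of the 3 carcinoma pairs all lay below those of the 3 adenoma pairs (6.67%), while for 0 they all lay above (6.39%). Only 1 of the 3 carcinoma pairs crosses the array groups as the adenoma pairs do. In that pair, of mouse 2201, the change of Col1a1, Col4a1, Col4a2, Col15a1 and Col6a3 lay below all 3 adenoma changes. These genes are among the 19 above, for which this holds by definition, so it is not separate evidence. The changes of Col1a2, Col6a1 and Col6a2 in mouse 2201 lay among the adenoma changes. The late biopsy of mouse 2201 was lower for 25 of 44 collagen genes, beside 64.9% of all genes. The count of 11 was 7 without mouse 3413 (808 of all genes, in place of 1404) and 3 with a term for the array group (1371).

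In the late biopsies, where all 6 arrays belong to the second array group, carcinoma and adenoma were close for most collagen genes. Col14a1 was the exception on the higher side, at 9.04 ± 0.23 in carcinoma and 8.29 ± 0.27 in adenoma (SD, n = 3), a difference of 0.75 (SE 0.234, adjusted p = 0.401) with no overlap. Col6a3 was at 10.16 ± 0.17 in carcinoma and 11.03 ± 0.39 in adenoma, a difference of -0.87 (SE 0.364, adjusted p = 0.41), also with no overlap. limma called 0 collagen genes and 0% of all genes, and these were the genes at an unadjusted p of 0.05, 1 higher (6.74% of all genes) and 1 lower (5.00%). Col2a1 differed by -0.16 (SE 0.075, adjusted p = 0.441) and Col11a1 by -0.20 (SE 0.109, adjusted p = 0.49). Levels did not overlap for 1 gene on the higher side (8.77%) and for 2, Col6a3 and Col2a1, on the lower (6.12%).

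The estimate was above 0 for 16 of 44 genes (54.2% of all genes), and for 8 of 44 with each array centred on its median, which moves the share of all genes above 0 as well, from 10804 to 8500 of 19938. For Col4a1 and Col4a2 the difference between the late groups was -0.03 (SE 0.253) and 0.01 (SE 0.259), and for Col1a2 it was -0.09 (SE 0.376). The count of genes above 0 was 10 without mouse 1805 (10565 of all genes), 7 without mouse 3407 (9985) and 25 without mouse 3413 (11621). The 2 genes at an unadjusted p of 0.05 (2341 of all genes) became 5 without mouse 1755 (2270), 4 without mouse 3407 (1331), 1 without mouse 1803 (3953) and 1 without mouse 1805 (976).

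In the early biopsies, grouped by what the tumor was later read as, collagen genes were higher in the tumors with later carcinoma. Ages at the early biopsy were 86 to 94 days with later adenoma and 87 to 117 days with later carcinoma. The oldest was mouse 3413, at 117 days, and the part of age in this comparison was not tested. Col4a2 was at 9.28 ± 0.24 in tumors with later adenoma and 10.30 ± 0.64 in those with later carcinoma (SD, n = 3), a difference of 1.03 (SE 0.259, adjusted p = 0.257). Col4a1 differed by 0.94 (SE 0.253, adjusted p = 0.269), Col15a1 by 1.01 (SE 0.283, adjusted p = 0.284) and Col1a1 by 1.15 (SE 0.348, adjusted p = 0.291). limma called 0 collagen genes and 0% of all genes. At an unadjusted p of 0.05 there were 17 collagen genes on the higher side (7.06% of all genes) and 0 on the lower (4.90%), beside 2384 of all genes in either direction. The count was 8 without mouse 1803 (3041 of all genes), 11 without mouse 1755 (1845), 11 without mouse 3407 (1439), 11 with arrays centred on their medians (2000) and 7 with a term for the array group (2005). The estimate was above 0 for 42 of 44 (60.1% of all genes), and levels did not overlap for 20, each higher in later carcinoma (10.7%), and for 0 lower (7.31%).

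This comparison and the changes above share the early arrays, so a high early level also makes a small change, and the results are not separate evidence. The highest early levels of the main chains were those of mice 3407 and 3413, whose early arrays belong to the second array group. These were above all 4 early arrays of the first array group for 20 of 44 collagen genes (9.94% of all genes) and below them for 0 (11.2%). Within the first array group, the early array of mouse 2201 was above the 3 adenoma arrays for 30 of 44 genes (39.7% of all genes), but by small steps for the main chains: Col4a1 was at 9.55 in mouse 2201 and at 9.45 in the highest of them, mouse 1805, and Col15a1 at 8.89 and 8.86. Col1a1 was at 11.14 in mouse 2201 and 11.16 in mouse 1805, and Col1a2 and Col3a1 were likewise within the range of the adenoma mice.

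**Figure D3:**
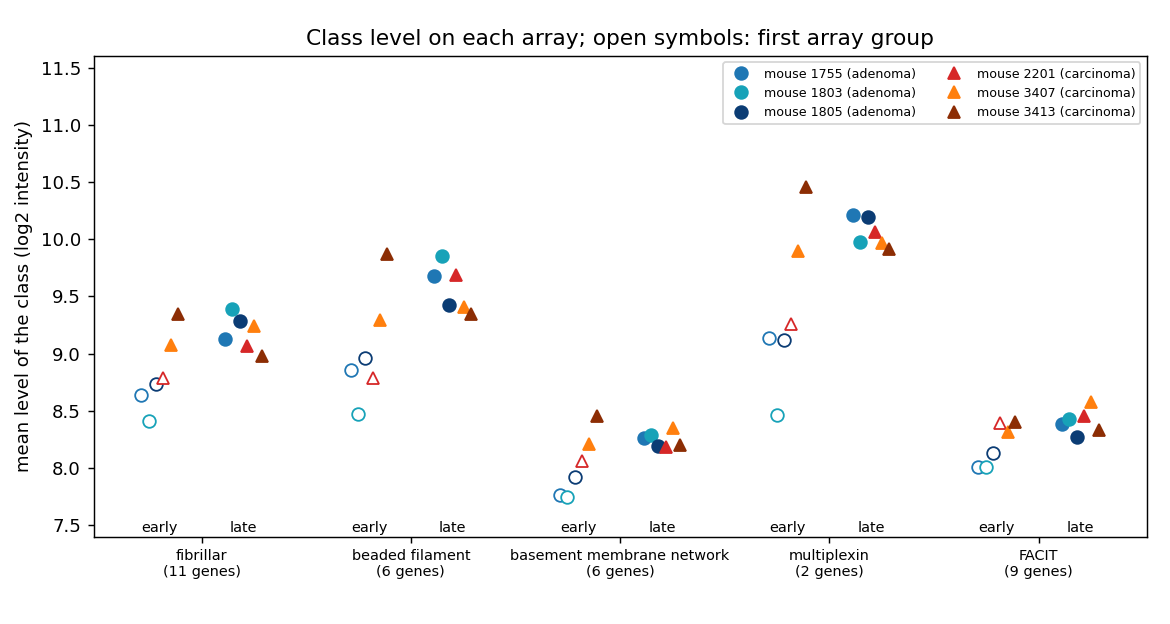
The mean level of 5 collagen classes in log2 intensity (y axis) on each array, early at the left and late at the right of each class. Open symbols are the 4 early arrays of the first array group and filled symbols the second. For fibrillar, beaded filament, basement membrane and multiplexin genes the open symbols lie below every filled one.

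For most collagen genes the early biopsies spread more than the late ones. The SD over the 6 early arrays was larger than that over the 6 late arrays for 32 of 44 collagen genes (50.5% of all genes). Among early and late arrays it was 0.67 and 0.07 log2 for Col4a1, 0.71 and 0.06 for Col4a2, 0.68 and 0.09 for Col5a2, and 0.78 and 0.18 for Col1a2. These are among the genes that narrowed most: the median SD of the 44 genes was 0.171 early and 0.138 late. It was larger late for 12 genes, such as Col5a3 (0.26 and 0.40), Col14a1 (0.37 and 0.47) and Col6a5 (0.53 and 0.57). The early arrays lie in both array groups and the late arrays in 1, and no test of the spread was made.

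Genes that make, process and bind collagen were likewise mostly above 0 over all tumors. Of 41 listed, 37 were measured, and 32 of 37 had an estimate above 0 over all tumors and 34 of 37 in adenoma tumors (42.1% and 47.2% of all genes), with medians of 0.27 and 0.53. limma called 0 of them in either comparison, with 14 and 23 at an unadjusted p of 0.05, all higher (5.68% and 7.38% of all genes). Lox, the oxidase that starts the cross-linking of fibers, was at 8.76, 7.86, 8.55, 8.81, 9.76 and 10.62 early and 10.25, 10.94, 10.93, 10.24, 10.05 and 10.55 late. It differed by 1.43 (SE 0.400, adjusted p = 0.251) over all tumors and by 2.32 (SE 0.359, adjusted p = 0.0714) in adenoma tumors. Tll1, a protease that trims procollagen, differed by 0.80 (SE 0.113, adjusted p = 0.0593) in adenoma tumors, and Plod2, which modifies lysines for cross-links, by 1.32 (SE 0.284, adjusted p = 0.108). The collagen-binding integrin subunits Itga1 and Itga11 differed by 1.16 (SE 0.201, adjusted p = 0.0866) and 1.18 (SE 0.214, adjusted p = 0.0872). Tram2, a membrane protein needed for type I collagen synthesis, differed by 1.18 (SE 0.239, adjusted p = 0.102).

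Over all tumors, Mrc2, a receptor that takes up collagen for breakdown, differed by 0.84 (SE 0.221, adjusted p = 0.243) and Pcolce, which speeds the trimming of procollagen, by 1.01 (SE 0.322, adjusted p = 0.270). Tram2 differed by 0.72, Itga1 by 0.72 and the prolyl hydroxylase subunit P4ha3 by 0.68. In carcinoma tumors 21 of 37 were above 0 (39.8% of all genes), with a median of 0.03, and 0 were higher at an unadjusted p of 0.05 (1.70%). The mean change of the list per mouse was 0.53, 0.84, 0.51, 0.38, 0.11 and -0.26, below 0 in mouse 3413 alone.

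Markers of stromal and vascular cells were mostly higher late, like the collagen genes. The 9 fibroblast and pericyte markers, all measured, changed on average by 0.85, 1.55, 0.12, 0.85, 0.36 and -0.55. Of these, 9 of 9 had an estimate above 0 over all tumors, beside 42.1% of all genes. The mean of the list ranged over 8.92 to 9.78 log2 in early adenoma, 9.47 to 10.74 in early carcinoma, 9.91 to 10.47 in late adenoma and 10.20 to 10.32 in late carcinoma arrays. The 8 endothelial markers changed by 1.34, 1.49, 1.12, 1.26, 0.02 and -0.11, with 8 of 8 above 0, and ranged over 8.47 to 8.87, 8.89 to 10.14, 9.96 to 10.21 and 9.77 to 10.15 in the same groups. The 6 smooth muscle markers changed by 0.71, 1.39, -0.50, 1.03, 0.13 and -0.77, with mouse 1805 lower, and ranged over 8.74 to 10.08, 8.63 to 10.15, 9.57 to 10.13 and 9.38 to 9.67.

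In mouse 1805 the lists differed. The 44 collagen genes changed by 0.34 on average, from -0.07 for short-chain network genes to 0.55 for fibrillar genes and 1.07 for multiplexins. Fibroblast and pericyte markers changed by 0.12 on average, from -1.42 for Lum to 1.18 for Pdgfrb. Smooth muscle markers changed by -0.50 and endothelial markers by 1.12. The 9 epithelial markers, all measured, changed by 0.08, -0.25, 0.42, -0.34, -0.20 and 0.01. They ranged over 12.00 to 12.47 in early adenoma, 11.50 to 12.06 in early carcinoma, 11.76 to 12.63 in late adenoma and 11.30 to 11.72 in late carcinoma arrays. The 5 of 6 macrophage markers measured changed by 0.40, 0.32, 0.22, 1.00, 0.01 and -0.05, and ranged over 9.20 to 9.68, 9.45 to 10.36, 9.52 to 10.02 and 9.80 to 10.45. The 3 of 4 enteric glia markers measured changed by -0.23 to 0.13 in all mice and ranged over 6.78 to 7.09. Neutrophil markers (6 of 6 measured) changed by 1.25, 1.94, 2.66, -0.74, 0.34 and 1.10, and ranged over 6.74 to 7.50, 7.80 to 8.75, 8.68 to 9.98 and 8.01 to 8.91. Alas2, the 1 of 4 erythroid markers measured, changed by 1.48, 1.77, 4.10, -0.82, 1.63 and 0.34. Estimates over all tumors were also above 0 for 6 of 6 smooth muscle, 5 of 5 macrophage and 6 of 6 neutrophil markers. They were above 0 for 4 of 9 epithelial and 1 of 3 enteric glia markers. The part of these cells in the collagen differences was not tested.

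**Figure D4:**
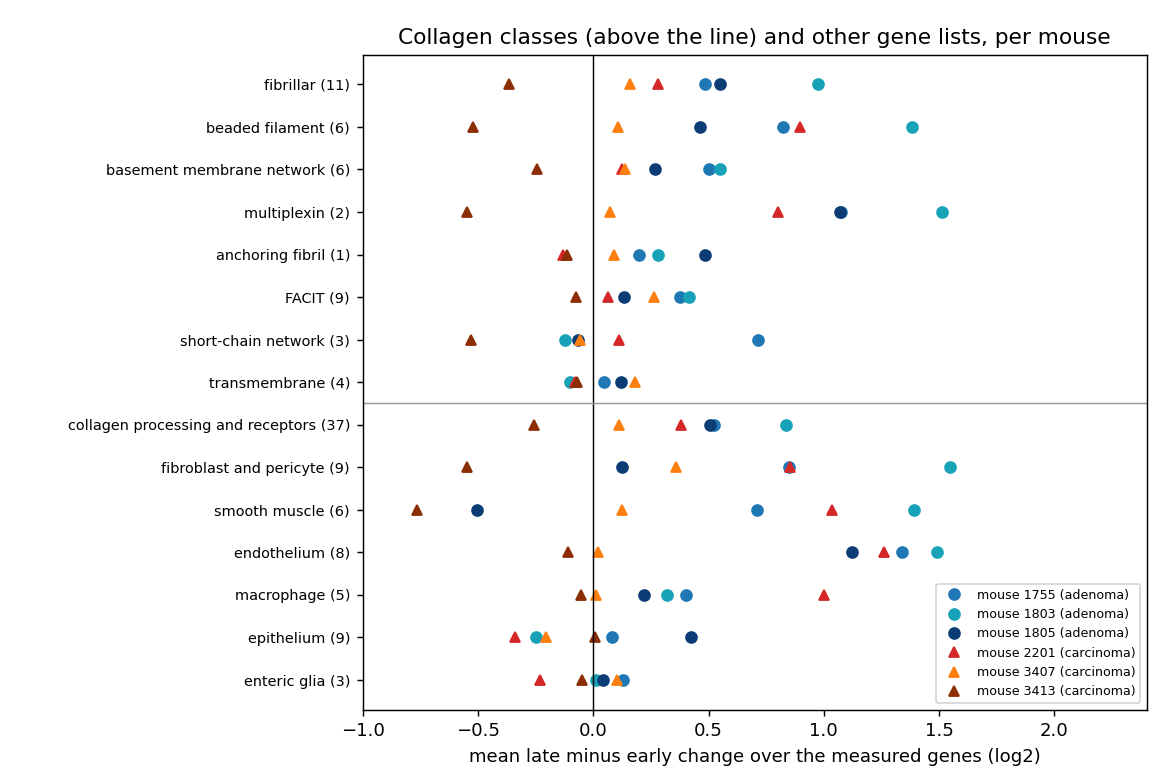
The mean late minus early change in log2 units (x axis) of collagen classes (above the line) and of processing genes and cell type markers (below it), with the number of measured genes in brackets and a symbol for each mouse. The endothelial markers separate mice 3407 and 3413, near 0, from the other 4 mice, at 1.12 to 1.49.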

How the data were processed

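Total RNA of 12 biopsies was measured on Affymetrix arrays. The authors deposited log2 values for 35557 probe sets, per the file headers, and the normalization behind them is not stated in the sources used here. Array medians were 7.62 to 7.80, and the number of arrays, 12, limits the precision. Probe sets with 1 gene symbol (21789) were kept, and the brightest per gene, leaving 19938 genes. limma 3.58.1 (R 4.3.3) was fitted to all genes with Benjamini-Hochberg adjustment and a threshold of 0.05. Late minus early was fitted with the mouse as a block, since both biopsies come from the same mouse (deviations of the pairs correlated at 0.11 to 0.527). For mouse 2201, at 0.11, the early array correlated better with the late array of another mouse. Pathology at each time was fitted with the mouse as a random block (correlation 0.286). The scripts were tested on simulated data. Classes, gene lists and members were chosen with earlier results of these data known. Values on every array are given for the 8 genes with the smallest p over all tumors and the 8 in adenoma tumors, the 4 in each other comparison, the brightest gene of each class, and Col3a1, added after its values were seen; of the processing genes up to 6 in each of the first 2 comparisons are named. Promoter sequences and gene neighbours are from RefSeq (GRCm38.p6). The 6 comparisons share arrays. P-values of late minus early, and of its difference by pathology, rest on the spread of the changes between these mice. Where the pathologies were fitted apart, that spread was pooled over both. P-values of pathology at each time rest on the spread of the levels within the groups. limma moderates each spread over all genes.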

Additional observations from a re-analysis of the deposited data

Results flagged for a closer look

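Among the 6 early arrays, Col6a5 was at 9.02 log2 in mouse 3413 and at 7.43 to 7.92 in the others, a gap of 0.689 of the range. The mean of the short-chain network genes was 8.22 in the late biopsy of mouse 1755 and 7.68 to 7.87 in the others, a gap of 0.651 of the range. The mean of Col26a1 and Col28a1 was 7.34 in the late biopsy of mouse 3413 and 7.51 to 7.61 in the others, a gap of 0.642 of the range. Such gaps were looked for in 81 groups of 6 values, and chance alone gives about 1 in 20.

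For 4 genes every adenoma tumor was higher late and every carcinoma tumor lower, a pattern of 1.71% of all genes. Some of these changes were near 0. They were -0.005 for Col5a3 and -0.013 for Col13a1 in mouse 3407, -0.02 for Col10a1 in mouse 2201 and 0.004 for Col27a1 in mouse 1755. The difference of the changes, carcinoma minus adenoma, was -1.02 for Col10a1 (limma, adjusted p = 0.712), -0.826 for Col5a3 (adjusted p = 0.632), -0.444 for Col27a1 (adjusted p = 0.621) and -0.323 for Col13a1 (adjusted p = 0.639), so that none passed the threshold.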

How the results depend on the processing

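With the array group as a term, which leaves mice 3407 and 3413 to set the change over all tumors, the genes at an unadjusted p of 0.05 over all tumors went from 8 to 0 (2940 to 475 of all 19938 genes) and those above 0 from 38 to 11 (8399 to 9867). Differences turned to -0.16 for Col15a1, -0.10 for Col4a2, -0.018 for Col1a2, -0.11 for Col4a1, -0.066 for Col5a2 and -0.16 for Col1a1. Each of these genes was higher late in mouse 3407 and lower late in mouse 3413. In the same setting the unadjusted counts went from 18 to 1 in adenoma (3597 to 1142 of all genes), from 1 to 0 in carcinoma (858 to 533), from 11 to 3 for the difference of changes (1404 to 1371) and from 17 to 7 in early biopsies (2384 to 2005). Genes above 0 went from 18 to 11 in carcinoma (7933 to 9867) and from 4 to 7 for the difference of changes (9385 to 7919). Age as a continuous term gave 16 genes at an unadjusted p of 0.05 over all tumors (3776 of all genes), and averaged probe sets gave 2 in carcinoma (867). Arrays centred on their medians gave 11 in early biopsies and 8 genes above 0 in late biopsies. The 4 crossing pairs alone, chosen after seeing the data, gave 15 over all tumors (3372 of all genes) and 1 at an adjusted p of 0.05. In these pairs time and array group cannot be told apart. Causes were not tested.

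Leaving out 1 mouse at a time, the unadjusted counts ran from 2 to 14 over all tumors, 0 to 4 in carcinoma, 7 to 14 for the difference of changes, 1 to 5 in late and 8 to 17 in early biopsies. Genes above 0 ran from 11 to 26 in carcinoma, 3 to 9 for the difference of changes and 7 to 25 in late biopsies. Where they are given above, the counts over all genes moved as well. These ranges alone therefore do not set the collagen genes apart from all genes. At an adjusted p of 0.05 the adenoma count ran from 0 to 1. Without the mouse as a replicate block, 12 genes passed an unadjusted p of 0.05 over all tumors, 0 passed the adjusted one, and no call changed.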
